A study of Mus musculus with 6 samples.

Results

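Dendritic cell marker genes were examined in the macrophages of the healing mouse infarct. The set comprised 7 genes, taken by symbol from the deposited count table of 54532 genes. They were the receptor tyrosine kinase gene Flt3, the transcription factor gene Zbtb46, the peptidase gene Dpp4, the chemokine receptor gene Xcr1 and the lectin genes Clec9a, Cd209a and Siglech. All 7 passed the filter on low counts, which left 14522 genes for testing. C57BL/6 mice of 2 groups were compared, each with 3 RNA-seq libraries, to ask how loss of the integrin α5 chain in myeloid cells alters infarct macrophages. Control ITGA5 fl/fl mice carried the floxed Itga5 gene without Cre, and Myα5KO mice carried the same floxed gene together with LyzM-Cre. All hearts were taken from 12-week-old animals whose left anterior descending artery had been tied permanently 7 days before. The LyzM promoter drives Cre in myeloid cells at large, neutrophils included, so deletion was not limited to macrophages, and Cre itself was present in only 1 of the groups. Cells of individual hearts were enriched magnetically as Ly6G- CD11b+, a phenotype that monocytes and part of the dendritic cells share with macrophages.

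Dendritic cells take up antigen, process it and present it to T cells. They develop from bone marrow progenitors under the cytokine Flt3 ligand, which signals through Flt3. Conventional dendritic cells express the transcription factor Zbtb46 and fall into a cDC1 lineage, which cross-presents antigen of dead cells and carries Xcr1 and Clec9a, and a cDC2 lineage, which lies close to monocytes in its surface antigens and carries CD11b. Plasmacytoid dendritic cells (pDC) are the interferon-producing lineage and carry Siglec-H. In the heart, dendritic cells are a small population among far more numerous macrophages. Several of these markers are not restricted to dendritic cells: Flt3 is found on early progenitors, Cd209a on some monocytes and monocyte-derived cells, and Dpp4 on T cells. These examples are not a complete list. Which cells of the libraries held the RNA of each marker, Zbtb46 included, was not tested.

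The libraries held 15424451 to 18419287 counts each, and every Myα5KO total lay above every ITGA5 fl/fl total. No pair of libraries from one group agreed within sampling noise, with a chi-square of at least 5.15 per degree of freedom. The targeted gene Itga5 followed the labels, with 607 ± 43.2 CPM (counts relative to library size, TMM-scaled, mean ± SD, n = 3) in controls and 48.7 ± 1.48 CPM after deletion. Its log2 fold change was -3.64 (SE 0.08, adjusted p = 4.42e-12, edgeR quasi-likelihood test). Macrophage genes were highly expressed in all 6 libraries. On the scale of deposited FPKM (fragments scaled by gene length and depth), the mean level over all libraries was 442 for Csf1r, the receptor of the macrophage growth factor CSF-1, and 397 for Adgre1, which encodes F4/80. The 7 dendritic markers together made up 48.3 to 78.3 CPM per library, and a list of 12 macrophage genes 16475 to 18809 CPM.

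Of the 7 markers, Cd209a rose in the Myα5KO libraries and none fell in edgeR, DESeq2 or limma-voom. Among all tested genes, 3.56% rose and 5.19% fell, which makes 8.75% called at an adjusted p of 0.05 or less. In addition to Cd209a, Flt3, Dpp4 and Clec9a had an unadjusted p under 0.05 with higher values in the Myα5KO group, and none had lower values at that level. At this unadjusted level, 11.7% of all tested genes were higher and 11.4% lower. For Zbtb46, the 2 groups had nearly the same mean. Values of Xcr1 and Siglech had negative fold changes whose intervals included 0. The median log2 fold change of the 7 markers was 0.43, the value of the uncalled gene Dpp4, beside 0.01 for all tested genes. The markers were chosen with earlier results of these data known. Their counts and median are therefore no measure of an excess or a shift among dendritic cell markers. In bulk RNA, fewer cells of a type and less RNA per cell cannot be told apart, so none of these values separates the number of dendritic cells from the activity of a gene. P-values refer to the spread between these 6 libraries.

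**Figure D1:**
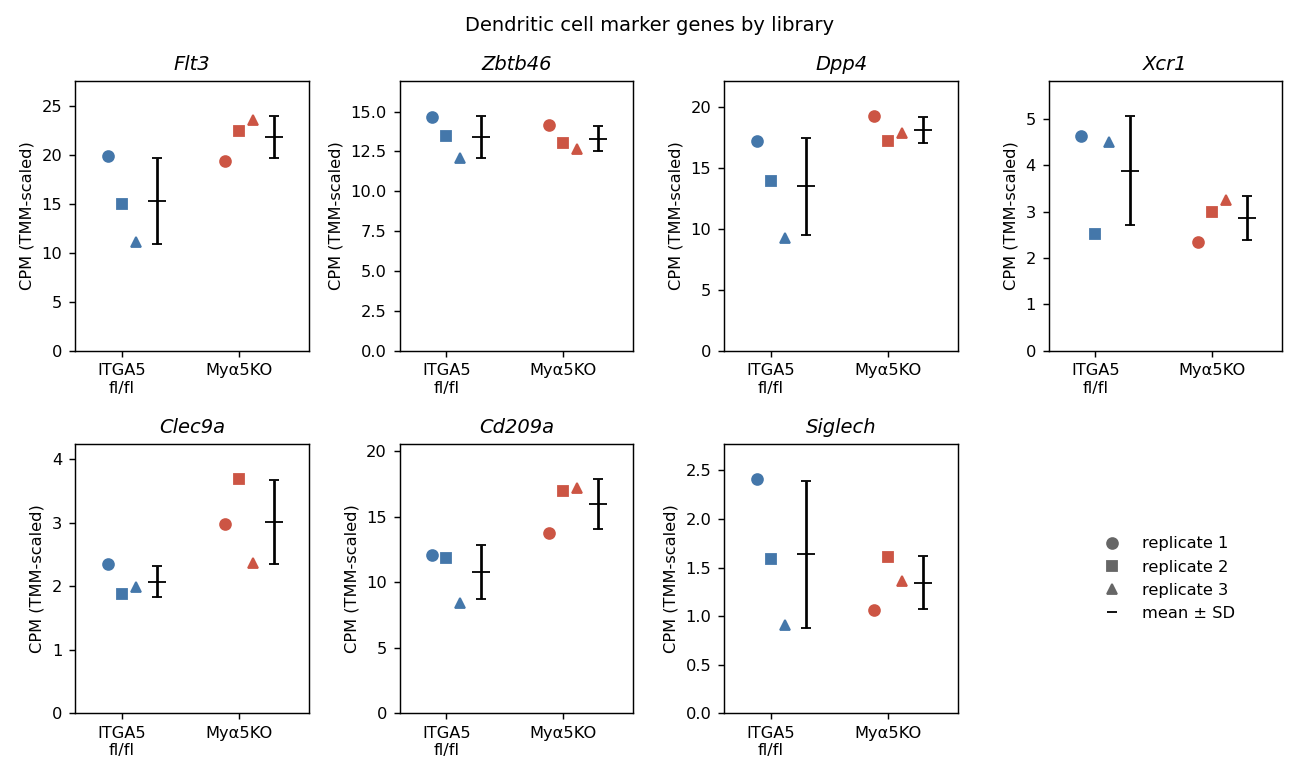
Level of each dendritic marker gene in each library, in TMM-scaled CPM (vertical axis, a scale of its own per gene, starting at 0) by group (horizontal axis). Symbols are replicates and bars give the mean ± SD (n = 3); the groups do not overlap for Cd209a and Clec9a, and ITGA5 fl/fl replicate 1 is the highest control library for all 7 genes.

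**Figure D2:**
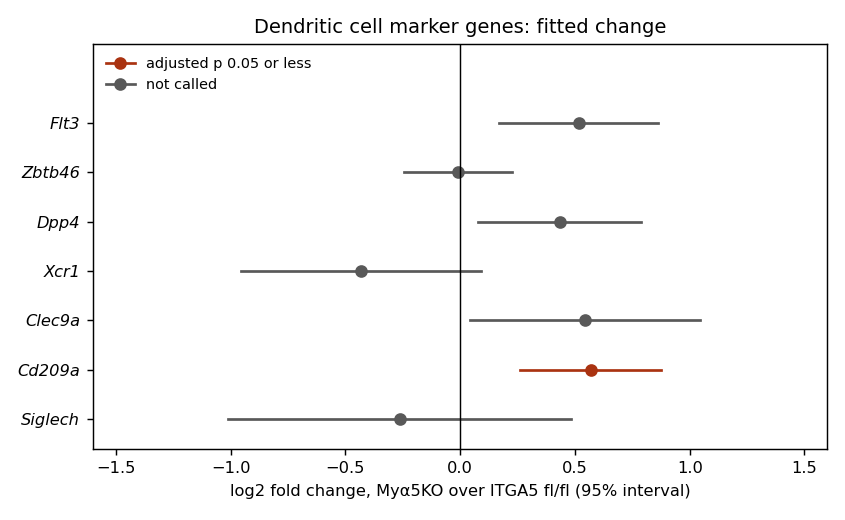
Fitted log2 fold change of the 7 genes, Myα5KO over ITGA5 fl/fl (horizontal axis), with 95% intervals from edgeR. The interval of Cd209a runs from 0.26 to 0.88 and it alone was called, while the interval of Zbtb46 runs from -0.24 to 0.23.

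To place the genes on the genome, promoter windows of 300 bases were read for all 7 genes from the RefSeq annotation (GRCm38.p6), with 250 bases before the annotated start and the first 50 transcribed bases. Those of the 4 genes with an unadjusted p under 0.05 are shown, since they are the promoters of the markers with higher values in Myα5KO libraries. Each is printed 5′ to 3′ on the strand of its gene, with motif matches in capitals. The windows lie at chr8:3748935-3749234 (Cd209a, minus strand), chr2:62412182-62412481 (Dpp4, minus strand), chr5:147400440-147400739 (Flt3, minus strand) and chr6:129408612-129408911 (Clec9a, plus strand).
Cd209a: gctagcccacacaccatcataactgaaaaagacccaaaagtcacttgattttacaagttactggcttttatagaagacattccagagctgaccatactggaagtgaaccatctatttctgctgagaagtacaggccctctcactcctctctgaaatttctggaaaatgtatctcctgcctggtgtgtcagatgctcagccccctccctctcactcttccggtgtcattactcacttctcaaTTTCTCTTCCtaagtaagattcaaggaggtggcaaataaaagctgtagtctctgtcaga
Dpp4: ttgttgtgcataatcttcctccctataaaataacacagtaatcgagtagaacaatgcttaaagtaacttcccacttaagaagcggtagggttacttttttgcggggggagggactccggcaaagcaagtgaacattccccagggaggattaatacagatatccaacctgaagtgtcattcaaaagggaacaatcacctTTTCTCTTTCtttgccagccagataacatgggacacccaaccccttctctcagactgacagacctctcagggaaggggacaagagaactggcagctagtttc
Flt3: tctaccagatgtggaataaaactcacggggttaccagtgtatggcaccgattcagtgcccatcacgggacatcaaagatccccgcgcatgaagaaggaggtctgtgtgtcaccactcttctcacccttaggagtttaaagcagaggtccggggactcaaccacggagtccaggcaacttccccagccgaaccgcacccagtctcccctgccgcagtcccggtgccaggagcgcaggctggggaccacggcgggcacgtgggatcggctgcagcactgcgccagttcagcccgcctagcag
Clec9a: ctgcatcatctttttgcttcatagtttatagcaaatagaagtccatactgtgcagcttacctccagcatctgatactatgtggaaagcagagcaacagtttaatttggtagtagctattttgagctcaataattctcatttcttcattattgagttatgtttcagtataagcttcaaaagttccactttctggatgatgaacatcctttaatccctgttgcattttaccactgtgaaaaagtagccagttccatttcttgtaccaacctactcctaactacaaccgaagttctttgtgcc
Both strands were searched for 6 motifs of dendritic cell transcription factors. The ETS-IRF composite element, searched as GGAA and GAAA with 2 bases of any kind between them, matched the Cd209a window on its reverse strand, beginning 9 bases before the start, and 2.72% of 32817 promoters of the same length held a match. The interferon-stimulated response element, searched as GAAA and GAAA with 2 bases between them, matched the Dpp4 window on its reverse strand, beginning 52 bases before the start, and 3.43% of promoters held it. No motif matched the Flt3, Clec9a and Xcr1 windows. The AP-1 site TGANTCA (7.81% of promoters) matched the Zbtb46 window, and the E-box CACCTG (20.2%) matched those of Zbtb46 and Siglech. The ETS-IRF composite with 3 bases between GGAA and GAAA and the PU.1 site GAGGAAGT were held by 2.76% and 3.20% of promoters and by none of the 7. Matches in the 7 windows did not overlap each other. They describe letters in these windows, not bound sites, and a window without a match says nothing of the factor. The Zbtb46 window sits at a start inside the gene.

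Cd209a encodes a C-type lectin of the DC-SIGN family and marks a monocyte-like subset of dendritic cells (ENSMUSG00000031494, chr8:3743397-3748984, minus strand, 7 exons in its longest transcript). In ITGA5 fl/fl replicates 1 to 3 it read 12.1, 11.9 and 8.42 CPM, and in Myα5KO replicates 13.7, 17.0 and 17.1 CPM. Every Myα5KO value lay above every control value, as for 1 other marker, Clec9a. Among all tested genes, 28.6% had groups that did not overlap, 14.9% in this direction. The means were 10.8 ± 2.05 and 15.9 ± 1.92 CPM (SD, n = 3 each). The fitted log2 fold change was 0.57 (SE 0.14, 95% interval 0.26 to 0.88, adjusted p = 0.0259, edgeR quasi-likelihood test). The call did not hold when ITGA5 fl/fl replicate 3 (log2 fold change 0.41, adjusted p = 0.109, edgeR), Myα5KO replicate 2 (0.52, 0.0818) or Myα5KO replicate 3 (0.51, 0.0724) was left out. No other annotated gene shares 50-base words with its exons.

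Flt3 (ENSMUSG00000042817, chr5:147330741-147400489, minus strand) encodes the receptor whose signal maintains dendritic cell development. The control libraries gave 19.9, 14.98 and 11.2 CPM, and those of Myα5KO gave 19.4, 22.4 and 23.6 CPM. ITGA5 fl/fl replicate 1 lay just above the lowest Myα5KO library, so the groups overlapped at that point. The log2 fold change was 0.52 (SE 0.16, 95% interval 0.17 to 0.86, adjusted p = 0.0635, edgeR), which missed the threshold. Without ITGA5 fl/fl replicate 1 it was 0.74 (adjusted p = 0.0072), and without Myα5KO replicate 1 it was 0.59 (0.0475). Without ITGA5 fl/fl replicate 3, the lowest control, it was 0.33 (adjusted p = 0.22). DESeq2 gave 0.51 (adjusted p = 0.0358) and limma-voom 0.56 (0.0451), both past the threshold. Flt3 and Cd209a were the 2 markers that each of these tools called higher, against 1.48% of 27687 genes with a count in DESeq2 and 3.31% of 14522 tested genes in limma-voom. The base of the DESeq2 share includes genes below the filter on low counts, so the 2 shares are not like for like.

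Zbtb46 (ENSMUSG00000027583, chr2:181387762-181459426, minus strand), the transcription factor gene that sets conventional dendritic cells apart from monocytes, read 14.7, 13.5 and 12.1 CPM in the controls and 14.2, 13.1 and 12.7 CPM after deletion. The groups overlapped fully, at 13.4 ± 1.31 and 13.3 ± 0.772 CPM (SD, n = 3 each). The log2 fold change was -0.01 (SE 0.11, 95% interval -0.24 to 0.23, adjusted p = 0.978, edgeR). Its sign was positive with library totals as the scaling (0.07).

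Dpp4 encodes CD26, a surface peptidase that is abundant on cDC1 (ENSMUSG00000035000, chr2:62330073-62412231, minus strand, 26 exons in the longest transcript). The ITGA5 fl/fl libraries held 17.2, 13.9 and 9.28 CPM and the Myα5KO libraries 19.2, 17.2 and 17.9 CPM. As for Flt3, ITGA5 fl/fl replicate 1 met the lowest Myα5KO value. The log2 fold change was 0.43 (SE 0.16, 95% interval 0.08 to 0.79, adjusted p = 0.130, edgeR). It was 0.64 (adjusted p = 0.0255) without ITGA5 fl/fl replicate 1 and 0.22 (0.373) without ITGA5 fl/fl replicate 3. The antisense gene Gm13561 overlaps exons of Dpp4, and the sources used here do not state how strand was treated in counting. Gm13561 held 1 to 4 counts per library, beside 163 to 361 for Dpp4.

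The cDC1 receptors Xcr1 and Clec9a were among the lowest of the set. Xcr1 (ENSMUSG00000060509, chr9:123852315-123862029, minus strand) binds the chemokine XCL1 of T and NK cells. Control libraries held 4.63, 2.53 and 4.50 CPM, compared with 2.34, 3.00 and 3.26 CPM in Myα5KO. ITGA5 fl/fl replicate 2 fell inside the Myα5KO range. The log2 fold change was -0.43 (SE 0.24, 95% interval -0.96 to 0.09, adjusted p = 0.312, edgeR), and -0.67 (0.106) without that library.

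Clec9a (ENSMUSG00000046080, chr6:129408862-129424763, plus strand) encodes a lectin that senses actin exposed by dead cells. The 3 controls read 2.35, 1.88 and 1.99 CPM, and the 3 Myα5KO libraries 2.98, 3.69 and 2.37 CPM. All Myα5KO values were above the controls, the lowest of them by a margin far smaller than the spread within the group. The log2 fold change was 0.54 (SE 0.23, 95% interval 0.04 to 1.05, adjusted p = 0.177, edgeR). Clec9a shares exon sequence with Clec1b on the same strand, which held 14 to 23 counts per library beside 32 to 69 for Clec9a, so part of these reads cannot be assigned to 1 of the genes with certainty. Counts of Clec9a ran from 44.3% to 74.4% of those of Xcr1 in ITGA5 fl/fl and from 72.6% to 127% in Myα5KO libraries. These ratios overlapped between the groups (exact two-sided permutation test, p = 0.2, where 0.1 is the smallest possible).

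Siglech (ENSMUSG00000051504, chr7:55768178-55778925, plus strand), the pDC member of the set, encodes a member of the Siglec family. The ITGA5 fl/fl libraries held 2.41, 1.59 and 0.911 CPM, and the Myα5KO libraries 1.06, 1.61 and 1.37 CPM. The control libraries spanned the whole Myα5KO range. With 16 to 36 counts per library, the log2 fold change of -0.26 had a wide 95% interval, -1.01 to 0.48 (SE 0.35, adjusted p = 0.704, edgeR). It was 0.11 without ITGA5 fl/fl replicate 1 and -0.56 without ITGA5 fl/fl replicate 3.

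Levels were set between genes per length, in deposited FPKM. They describe cells selected for CD11b, which the cDC2 lineage carries. They are therefore not levels of the cDC1 and pDC markers in the whole infarct. Cd209a was the most abundant marker in both groups, at 6.78 ± 1.28 FPKM in ITGA5 fl/fl and 9.99 ± 1.16 FPKM in Myα5KO (SD, n = 3 each). Its libraries did not overlap those of the next gene in either group. Flt3 followed at 2.47 ± 0.710 and 3.50 ± 0.324 FPKM, then Dpp4 at 2.12 ± 0.630 and 2.84 ± 0.171 FPKM and Zbtb46 at 1.57 ± 0.154 and 1.55 ± 0.1001 FPKM. In ITGA5 fl/fl, neighbours among these last 3 genes overlapped, while in Myα5KO none of them did. Xcr1 (0.869 ± 0.266 and 0.638 ± 0.101 FPKM) and Clec9a (0.627 ± 0.0752 and 0.909 ± 0.206 FPKM) overlapped each other in both groups. Siglech was lowest, at 0.482 ± 0.222 and 0.395 ± 0.0794 FPKM, and overlapped its neighbour Clec9a in ITGA5 fl/fl but not its neighbour Xcr1 in Myα5KO. By mean FPKM, the 7 genes lay between the percentiles 50.1 (Siglech) and 83.3 (Cd209a) of genes with a count, whereas Csf1r lay at 99.7.

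**Figure D3:**
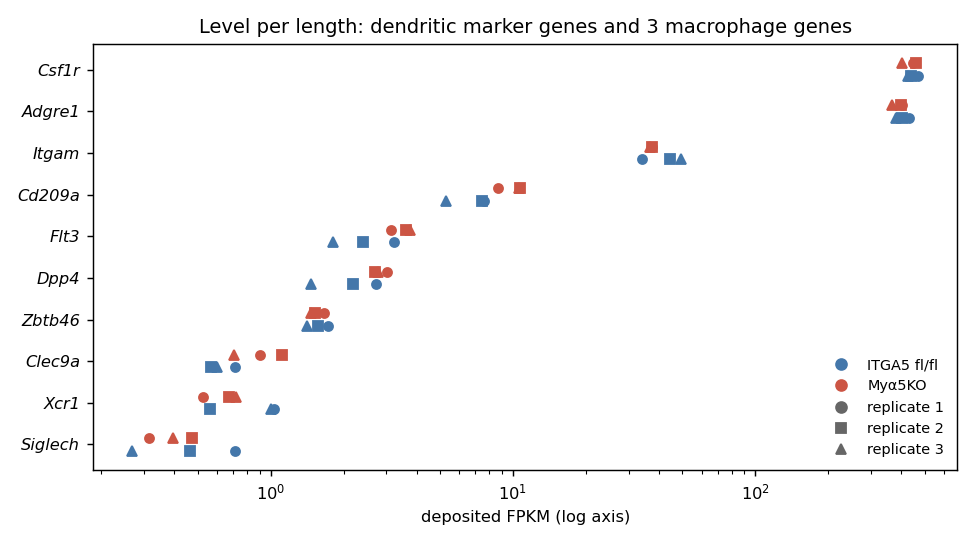
Deposited FPKM of the 7 dendritic markers and of the macrophage genes Csf1r, Adgre1 and Itgam in each library (log axis). Colours are groups and symbols replicates; Cd209a is the highest marker in both groups and Csf1r averages 442 FPKM.

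Within each library, the markers were next expressed relative to Zbtb46 and to Ccr2, a chemokine receptor gene of monocytes and cells derived from them. These ratios do not depend on how libraries are scaled, and they were chosen after the values were seen. The denominators themselves had fitted log2 fold changes of -0.01 (Zbtb46) and 0.58 (Ccr2). The ratios therefore largely restate the fold changes of the single genes and are no separate evidence. Counts of Cd209a were 69.8% to 88.2% of Zbtb46 counts in ITGA5 fl/fl and 97.0% to 135% in Myα5KO libraries. The mean log2 ratio was higher by 0.58. Flt3, Dpp4 and Clec9a relative to Zbtb46 were likewise higher in every Myα5KO than in every control library, by 0.55, 0.48 and 0.53. Each of these 4 ratios gave p = 0.1 in an exact two-sided permutation test, the smallest that 3 against 3 libraries allow, and 0.229 after adjustment over 16 ratios. The ratios of Xcr1 and Siglech to Zbtb46 went the other way, by -0.39 (exact permutation p = 0.3) and -0.18 (p = 0.7), and overlapped between the groups.

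Relative to Ccr2, the same 4 genes did not separate the groups. Cd209a counts were 5.32% to 7.73% of Ccr2 counts in ITGA5 fl/fl and 5.88% to 6.64% in Myα5KO libraries, with a mean log2 difference of -0.00. The differences for Flt3, Clec9a and Dpp4 were -0.04, -0.06 and -0.11 (exact permutation p of 0.8 to 1). Ccr2 itself rose in Myα5KO libraries, with a log2 fold change of 0.58 (SE 0.08, adjusted p = 0.00111, edgeR). Zbtb46 relative to Ccr2 was lower in every Myα5KO library, by a mean log2 ratio of -0.59, and so was Xcr1, by -0.98 (exact permutation p = 0.1 and adjusted p = 0.229 for both). Siglech relative to Ccr2 differed by -0.77 with overlapping groups (exact permutation p = 0.2).

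**Figure D4:**
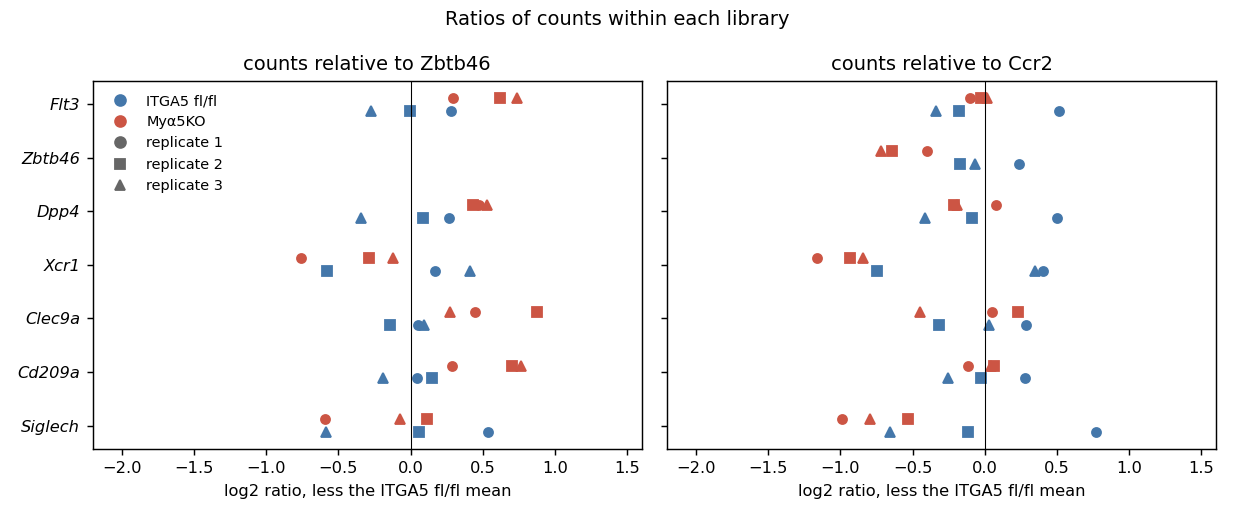
Log2 ratio of counts within each library for the dendritic markers over Zbtb46 (left) and over Ccr2 (right), less the ITGA5 fl/fl mean (horizontal axis). Colours are groups and symbols replicates; over Zbtb46, Myα5KO libraries exceed all controls for Flt3, Dpp4, Clec9a and Cd209a, and over Ccr2 the groups overlap for these 4 genes.

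Further dendritic cell genes were grouped into 7 lists by lineage or role, with 111 genes, of which 104 were tested. In all, 16 rose and 8 fell, or 23.1% beside 8.75% of all tested genes, and their median log2 fold change was 0.04 beside 0.01. The lists were chosen with earlier results of these data known, so this share is no measure of an excess among dendritic cell genes. The called genes ranged in control mean from 0.330 CPM (Pacsin1) to 894 CPM (Syk), and which cells their RNA came from was not tested. With scaling by library totals alone, 25 of the tested list genes rose and 6 fell. Of the 24 called genes, Id2, Relb, Irf7, Ciita, Syk, Ptpn6 and Csf2rb were called without each of the 6 libraries in turn, and the other 17 lost the call without at least 1 library.

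Of 14 tested cDC1 genes, 1 rose and 2 fell (median log2 fold change 0.16). Cadm1, an adhesion molecule of cDC1, rose by a log2 fold change of 0.32 (adjusted p = 0.0281, edgeR). Id2, an inhibitor of E proteins that cDC1 require and many other cells express, went from 552 ± 13.7 to 412 ± 49.9 CPM (-0.42, adjusted p = 0.00818), and the glycoprotein gene Cd24a fell as well (-0.56, 0.0209). For the lineage factors Batf3 and Irf8, the log2 fold changes were 0.17 (adjusted p = 0.667) and 0.18 (0.104). Irf8 passed only with library-total scaling among the alternatives run.

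Among 14 tested cDC2 genes, 3 rose and 2 fell (median 0.12). Ltb, which encodes lymphotoxin β, rose by 0.67 (adjusted p = 0.0362, edgeR), the transcription factor gene Klf4 by 0.39 (0.0333) and the lectin gene Clec10a by 0.37 (0.0359), all on the log2 scale. Ltb was not called by DESeq2. Of the 6 fits with a library left out, Ltb was called in 1 and Klf4 and Clec10a in 2 each. Relb, an NF-κB subunit gene, had -0.38 (0.00323) and the receptor gene Notch2 -0.31 (0.0267), and both fell. The cDC2 factor Irf4 had a log2 fold change of 0.29 (adjusted p = 0.0778).

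In the pDC list, 4 of 15 tested genes rose and none fell at the adjusted threshold (median 0.19, 1 lower at an unadjusted p under 0.05, none lower by DESeq2 or limma-voom). Irf7, the master regulator of type I interferon, went from 119 ± 7.86 to 163 ± 4.66 CPM (log2 fold change 0.45, adjusted p = 0.00142, edgeR). Spib, an ETS factor of pDC and B cells, had 0.58 (adjusted p = 0.0426). It was 0.33 and not called without Myα5KO replicate 1, was called in 2 of the 6 fits with 1 library omitted, and was not called by limma-voom. The RNA sensor gene Tlr7 went from 124 ± 6.22 to 147 ± 3.82 CPM (log2 fold change 0.25, adjusted p = 0.0301). Pacsin1 rose by 1.43 (adjusted p = 0.0488), at a level of only 0.330 ± 0.125 and 0.885 ± 0.0827 CPM, and passed under 3 of the 16 alternatives that gave a value. Tcf4, the factor that specifies pDC, had a log2 fold change of -0.18 (adjusted p = 0.139). The pDC marker Siglech, with a control mean of only 1.64 CPM, had -0.26 (0.704). Of the 15 tested genes of the list, 10 had positive and 5 negative fold changes. Which cells held the RNA of Irf7, Tlr7, Spib and Pacsin1 was not tested, so their rise is not a measure of pDC.

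The migratory list, genes of the mature dendritic cell that travels to lymph nodes, had 1 called gene of 14. Birc3, an inhibitor of apoptosis, fell (log2 fold change -0.32, adjusted p = 0.0123, edgeR). Ccr7, the receptor that guides this migration, had -0.04 (0.828). None rose in edgeR, 2 were higher at an unadjusted p under 0.05, and DESeq2 and limma-voom called 1 and 0 higher.

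Of 23 genes common to conventional dendritic cells, 4 rose and none fell (median 0.19). None was called lower by limma-voom, 1 was by DESeq2, and 3 were lower at an unadjusted p under 0.05 in edgeR. The inhibitory receptor gene Btla had the largest log2 fold change of the 4, 0.79 (adjusted p = 0.0103). Ciita, the master regulator of MHC class II, rose from 23.5 ± 5.12 to 37.6 ± 3.83 CPM (0.68, 0.00617). H2-DMb2, which loads peptide onto class II molecules, had 0.53 (0.0113) and the kynurenine enzyme gene Kmo 0.57 (0.0273).

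Of 19 genes of ligands, adaptors and signalling, 4 rose and 3 fell (median -0.04). Among the called genes, the largest increases were those of the interferon-induced chemokine gene Cxcl9 (log2 fold change 0.98, adjusted p = 0.0306, edgeR), the phosphatase gene Ptpn6 (0.53, 0.00043) and Cxcl10 (0.39, 0.0228). Syk, a kinase downstream of CLEC9A and other lectins, had -0.44 (0.00291), the shared cytokine receptor gene Csf2rb -0.43 (0.0123) and Stat3, which transmits the Flt3 signal, -0.27 (0.0280), and all 3 fell. For Cxcl9, Myα5KO replicate 2 held 31.6 CPM beside 13.4 and 15.4 CPM in the other Myα5KO libraries, and without it the log2 fold change was 0.50 and the call was lost. The call was also lost without any 1 of the ITGA5 fl/fl libraries, and neither DESeq2 nor limma-voom made it. The ligand genes of the set, Flt3l and Xcl1, had log2 fold changes of 0.41 (adjusted p = 0.197) and -0.27 (0.733).

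In the family of Cd209a, 5 of 6 further genes were tested. None was called by edgeR, DESeq2 or limma-voom or had an unadjusted p under 0.05, with a median log2 fold change of -0.11. Their summed level was 9.16 to 18.7 CPM in controls and 8.94 to 19.8 CPM after deletion, so the groups overlapped.

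**Figure D5:**
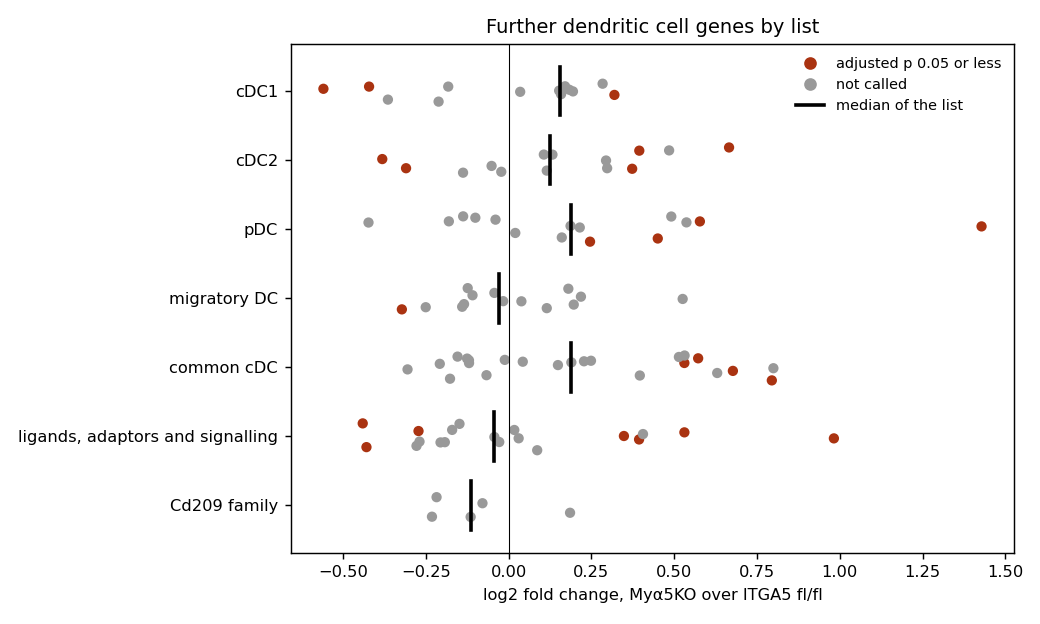
Log2 fold change of each tested gene in the 7 further dendritic cell lists, Myα5KO over ITGA5 fl/fl (horizontal axis), 1 point per gene. Red points were called and vertical bars mark list medians, which range from -0.11 (Cd209 family) to 0.19 (pDC and common cDC).

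Genes of other cells moved between the groups too, and their part in the values above was not tested. Depletion of Ly6G+ cells and selection for CD11b are steps that would remove neutrophils and most lymphocytes, fibroblasts and endothelial cells, while monocytes would remain. Which dendritic cells passed these steps was not tested. Of 10 tested monocyte genes, 5 rose and 1 fell (median log2 fold change 0.46). Their summed level was 3936 to 5576 CPM in controls and 3704 to 4282 CPM after deletion. Ly6c2 of classical monocytes rose by 0.71 on the log2 scale (adjusted p = 0.00225, edgeR), beside Ccr2. The gene that fell was Fn1, which encodes fibronectin and was named after its values were seen. It went from 3380 ± 832 to 2032 ± 425 CPM (log2 fold change -0.73, adjusted p = 0.0163) and made up most of the sum of the list. Replicate 1 of ITGA5 fl/fl (2446 CPM) lay just above replicate 1 of Myα5KO (2442 CPM). The call of Fn1 was lost without ITGA5 fl/fl replicate 2 or 3, in DESeq2 and in both FPKM fits. Of 12 macrophage genes, 1 rose, 1 fell and 10 were not called (median log2 fold change -0.04, 2 positive and 10 negative). The sum was 18592 to 18809 CPM in controls and 16475 to 17483 CPM after deletion. Cd14, which went from 4755 ± 160 to 3489 ± 239 CPM, made up most of this difference. Fcgr1, the CD64 gene, had 0.27 (0.0215) and Cd14, the endotoxin co-receptor gene, -0.45 (0.00413).

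Of 9 tested granulocyte genes, 7 rose, with sums of 186 to 229 CPM and 254 to 379 CPM. The granule genes Ltf and Camp rose by 2.05 (adjusted p = 0.00143, edgeR) and 1.89 (0.00599) on the log2 scale, while the defining gene Ly6g held at most 2 counts in any library. All 8 B cell genes had positive fold changes, and 1 of them rose, the antigen receptor chain gene Cd79b (log2 fold change 0.57, adjusted p = 0.0258). The sum of the B cell list was 652 to 762 CPM in controls and 692 to 1002 CPM after deletion. Myα5KO replicate 1 was the highest library for this list, and it was also the highest for Spib (28.8 CPM) and Btla (9.95 CPM). For other called genes of the dendritic lists, such as Ciita (41.9 CPM) and Ltb (5.63 CPM), Myα5KO replicate 3 was the highest. The part of B cells in these values was not tested.

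None of 8 tested T and NK cell genes was called by edgeR, DESeq2 or limma-voom, 3 were higher at an unadjusted p under 0.05, and the sums were 117 to 137 and 121 to 133 CPM. None of 6 progenitor genes was called or had an unadjusted p under 0.05 (70.6 to 83.7 and 77.8 to 91.1 CPM). Of 10 fibroblast genes, Postn fell (log2 fold change -0.40, adjusted p = 0.0261, edgeR; -0.26 and not called without ITGA5 fl/fl replicate 1), with sums of 1647 to 1923 and 1238 to 1602 CPM. Of 9 endothelial genes, Kdr rose (0.26, 0.0433) and Cldn5 fell (-0.44, 0.0356), with sums of 388 to 446 and 410 to 459 CPM. Kdr lost the call in every fit with a library left out, in DESeq2 and with median-ratio or upper quartile scaling. Among the genes named from these lists, Ccr2, Ly6c2, Cd14, Ltf and Camp were called without each library in turn, and Fn1, Fcgr1, Cd79b, Postn, Kdr and Cldn5 were not. No gene of these 8 lists was at 0 in every library.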

How the data were processed

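Ly6G- CD11b+ cells of 6 infarcted hearts were sequenced as polyadenylated RNA, with group and replicate taken from the titles. Per the labels and the study's methods, the authors aligned reads to GRCm38.p6 (mm10) with TopHat2 2.0.9 and counted them with HTSeq 0.6.1. The deposited counts are whole reads per gene, not normalized. FPKM values, likewise deposited by the authors, were used for levels between genes and as an alternative. Per the study's methods, Cufflinks 2.1.1 and Scripture assembled the mapped reads. The treatment of strand and multi-mapped reads is not given in the sources used here.

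The test was edgeR's quasi-likelihood fit (version 4.0.16, R 4.3.3) on TMM-scaled counts, group as the only term and the default filter (minimum count 10, minimum total 15), which kept 14522 of 54532 genes. P-values are two-sided and Benjamini-Hochberg adjusted over these genes, and genes at 0.05 or less are called. The Myα5KO group is the numerator of each fold change. The methods of the study name DESeq2 without its design, so DESeq2 1.42.0 was an alternative. The others were limma 3.58.1 (voom, and limma on log2(FPKM + 1) and log2(FPKM + 0.1)), other scalings, filters and thresholds, the replicate block and each library left out. Thinning to equal depth and the ratios within a library were added after seeing the data. The scripts were tested on simulated data.

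The members and lists were chosen with earlier results of these data known. Named are all 7 markers, Itga5, called genes of the 7 dendritic lists (at most 3 in each direction for lists with over 6), up to 2 called genes of each other-cell list, ligands and lineage factors whatever their value, and the 5 genes closest to the mean profile of the markers. Library totals of 15424451 to 18419287 counts give a precision that covers counting error only. Motif matches came from the RefSeq promoter table (GRCm38.p6), which held all 7 genes. A gene of the lists is not reported here, and it and 5 ratios to it were left out of the counts, sums and adjustment. Coordinates are those of the deposited table.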

Additional observations from a re-analysis of the deposited data

How the results depend on the processing

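The count of 1 marker called higher became 2 with DESeq2, 2 with limma-voom, 2 with library totals only, 3 with no filter, 0 with limma on log2(FPKM + 1), 0 with limma on log2(FPKM + 0.1) and 0 at an adjusted p of 0.01 or less, and it ran from 0 to 3 when each library was left out in turn. It was 3 without ITGA5 fl/fl replicate 1, 2 without Myα5KO replicate 1, and 0 without ITGA5 fl/fl replicate 3, Myα5KO replicate 2 or Myα5KO replicate 3. No marker was called lower under any alternative run. In the 7 dendritic lists, 16 genes called higher became 2 under both FPKM fits, 25 with library totals only and 3 at 0.01, with 6 to 11 when a library was left out, while 8 called lower became 2 under both FPKM fits and 3 at 0.01, with 5 to 8. Over all genes, 1271 calls became 212 and 244 under the FPKM fits (pseudocounts 1 and 0.1) and 470 at 0.01, with 613 to 1090 when a library was left out. With library totals only, 1212 rose and 518 fell, beside 517 and 754. That setting leaves out the TMM factors, which were 0.969 to 0.979 in ITGA5 fl/fl and 1.020 to 1.034 in Myα5KO libraries. For these counts the cause was not tested, apart from the stricter threshold, the smaller number of libraries and the scaling left out.

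Signs turned for 6 uncalled genes. The log2 fold change of Zbtb46 became 0.0722 with library totals only, 0.0093 after thinning to equal depth and -0.0798 to 0.06 when a library was left out (0.06, 0.0009 and 0.0254 without ITGA5 fl/fl replicate 1, Myα5KO replicate 2 and Myα5KO replicate 3). With a library left out, Siglech ran from -0.5599 to 0.1111 (positive without ITGA5 fl/fl replicate 1), Xcl1 from -0.5256 to 0.223 (positive without ITGA5 fl/fl replicate 2), Batf3 from -0.0979 to 0.3502 (negative without Myα5KO replicate 3), Ccr7 from -0.1521 to 0.0601 (positive without ITGA5 fl/fl replicate 2) and Map3k7 from -0.0046 to 0.0838 (negative without ITGA5 fl/fl replicate 3), and Ccr7 was 0.0372 with library totals only. The cause was not tested. Of 1131 values of 63 genes under the alternatives, 884 kept direction and call, 225 lost the call, 11 gained it and 11 changed sign.

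Replicate numbers were shared between groups, but the deviations of same-numbered libraries correlated at 0.0509, -0.0576 and 0.0434, so the numbers were not taken as pairs. With the replicate block, 1 marker was called higher and 0 lower, the lists had 13 higher and 9 lower, and 1181 genes were called in all. Of the 6 libraries, 2 correlated best with the library of their own number. Counts of 16 to 79 per library limit Xcr1, Clec9a and Siglech, whose 95% intervals reach -0.96, 1.05 and -1.01 on the log2 scale.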

Other observations

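Over the 6 libraries, the standardised log2 CPM of the 7 markers was averaged, and this mean was itself standardised again. The resulting profile was 1.08, -0.702 and -1.84 in ITGA5 fl/fl replicates 1 to 3 and 0.219, 0.865 and 0.384 in the Myα5KO libraries. Its spread among controls was wider than that among Myα5KO libraries. Because it was rescaled, its size does not show how far the 7 markers moved together. The 5 genes with the profile most like it were Fgd3 (Pearson r 0.993), St18 (0.988), Afdn (0.985), Sh2b3 (0.984) and Map3k7 (0.983), among 9328 genes with a mean of at least 100 counts. Of these candidates, 20 had an r over 0.95. The values are a description over 6 libraries that share depth and scaling. None of the 5 genes was called, and their log2 fold changes between the groups were 0.03 (Afdn) to 0.17 (St18).

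Clec10a and Itgax, genes of the wider dendritic lists, were also set against Ccr2 counts. Clec10a ran from 27.0% to 38.8% of Ccr2 counts in ITGA5 fl/fl and from 24.0% to 31.7% in Myα5KO libraries. Itgax, the CD11c gene, ran from 68.1% to 93.3% and from 59.6% to 64.5%, so that every Myα5KO library lay below every control (exact two-sided permutation test, p = 0.1, the smallest possible, adjusted p = 0.229).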
